A study of Caenorhabditis elegans with 24 samples.

Results

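The genes that build and anchor the contractile apparatus of body wall muscle in Caenorhabditis elegans were examined by DamID, 40 genes in all. They comprise thick filament, thin filament and troponin genes, giant titin-like proteins, the dense body, M-line and matrix attachment complex, and the myogenic factor gene hlh-1. Each gene was represented by the 10 kb bin (ce11) that holds its midpoint, which gave 38 of the 10030 nuclear bins, because act-2 and act-3 share a bin and so do mlc-1 and mlc-2. The genes were picked by name and not by a measured value, but with earlier results of these data known. All 38 bins passed the filter on low reads.

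In DamID a bacterial adenine methyltransferase (Dam) marks GATC sites that it can reach, and the marked fragments are amplified and sequenced. Dam-EMR is a fusion of Dam to EMR-1, the worm emerin, a protein of the inner nuclear membrane, and GFP-Dam is a nuclear fusion that is not tethered and serves as the measure of accessible chromatin. Both were measured in L3/L4 larvae grown for 26 h at 22.5 °C on Dam-deficient bacteria, and per the labels the hsp-16.41 heat shock promoter was left without induction so that only traces of fusion were made. A FLP recombinase under the myo-3 promoter set the tissue, so every group carried that driver. All 4 strains expressed a GFP-tagged lamin. GFP-LMN carried GFP::LMN-1, GFP-LMN_cec4 carried it with cec-4(ok3124), GFP-Y59C carried GFP::LMN-1(Y59C), and GFP-Y59C_cec4 carried the substituted lamin with cec-4(ok3124). CEC-4 is a chromodomain protein that holds methylated histone H3 lysine 9 chromatin at the nuclear envelope. There were 3 biological replicate rounds per strain and fusion, with the strains of a round grown in parallel, which made 24 libraries, 8 groups and 12 pairs of Dam-EMR with GFP-Dam. No untagged lamin strain was analysed here, and a lower amount of methylation per nucleus cannot be told apart from fewer marked nuclei.

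In a muscle cell of this worm the thick filaments of myosin and paramyosin interlock with thin filaments of actin, tropomyosin and troponin. The thin filaments are fixed at dense bodies and the thick filaments at M-lines, both of which are tied through integrin to the perlecan-rich matrix beneath the hypodermis. Loss of an attachment gene can leave embryos paralysed and arrested, the phenotype behind the pat names, and loss of many filament genes leaves uncoordinated adults, the phenotype behind the unc names. Active tissue genes are generally accessible to a free methyltransferase, and genes held at the nuclear envelope are generally silent.

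The Dam-EMR libraries held 34948 to 6163104 nuclear reads in 10 kb bins and the GFP-Dam libraries 2726614 to 19412316. The median bin held 99 to 579 reads in a GFP-Dam library but only 1 to 210 in a Dam-EMR library. The shallowest was Dam-EMR of GFP-Y59C in round 3, with 1 read in the median bin and 7 in the median muscle gene bin. No muscle gene bin was at 0 reads in a GFP-Dam library, whereas 10 values were at 0 over the Dam-EMR libraries, 5 of them in that shallow library. At this depth a count of 0 allows up to 85.8 CPM, reads scaled to a common library total (3 counts of the library total, counting error only).

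The muscle gene bins were among the most methylated of the genome by free GFP-Dam. The level of a bin is the log2 of its CPM value plus 1, minus the median bin of the same library, so that 0 is the genome's median bin. The median muscle gene bin stood at 3.14 ± 0.405 (SD, n = 12 libraries), or 8.82-fold over the median bin, with a lowest library of 2.48 and a highest of 3.60. Of the 38 bins, 33 lay above the median bin in all 12 libraries, against 37.6% of all bins. At least 4-fold levels in all 12 libraries were found in 23 of the 38, against 10.5% of all bins. By mean level 5 muscle gene bins were in the top 1% of the genome, 15 in the top 5% and 24 in the top 10%.

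**Figure D1:**
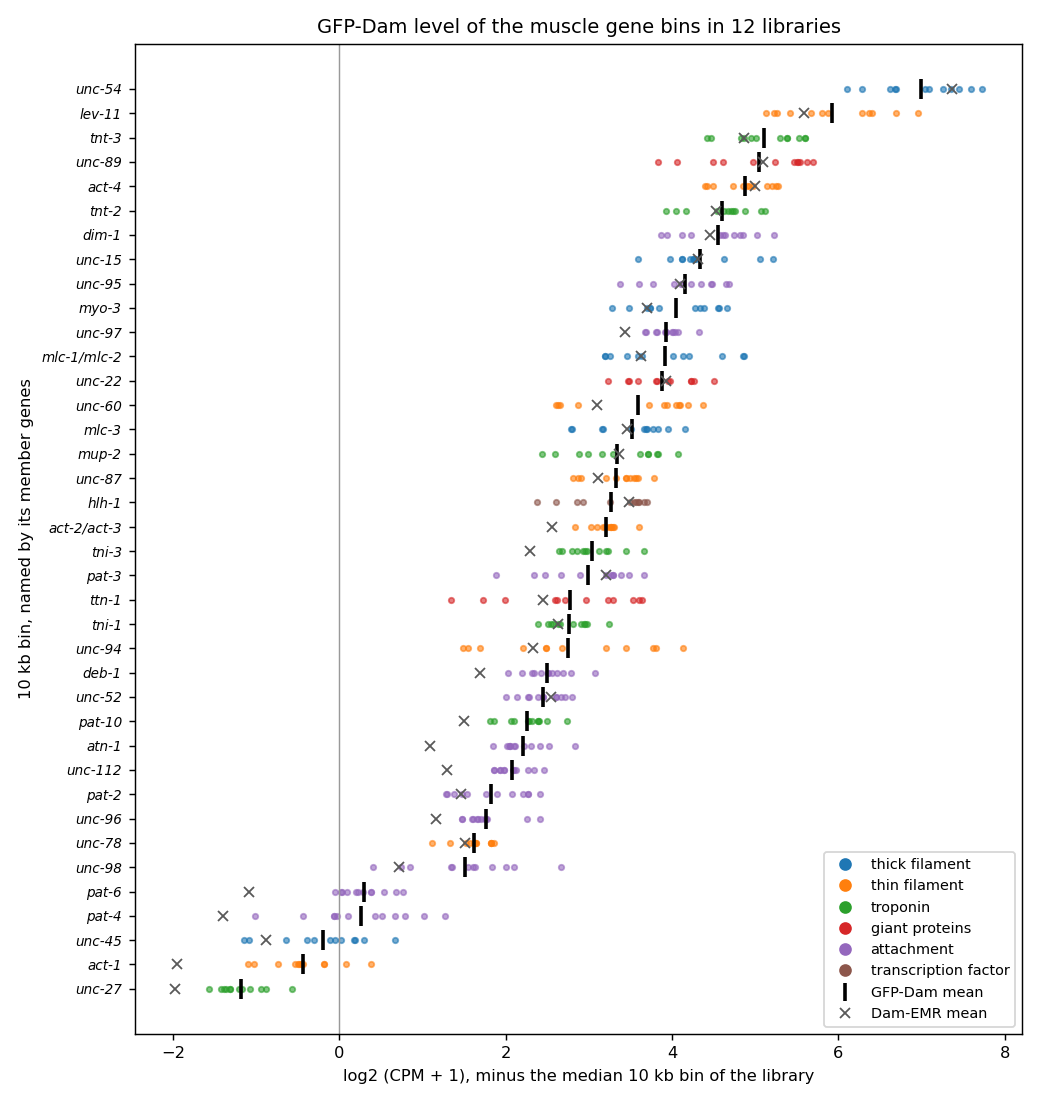
GFP-Dam level of each of the 38 muscle gene bins. Each point is 1 of 12 libraries on a log2 scale relative to the library's median bin (0, grey line), coloured by role, the black tick is the mean over GFP-Dam libraries and the cross the mean over Dam-EMR libraries. The bins run from unc-54 at 6.99 down to unc-27 at −1.18, and 33 have every point to the right of 0.

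Thick filament genes had the highest median level, 3.94 ± 0.438. The bin of unc-54 (I, 14855901 to 14863482), the major body wall muscle myosin heavy chain, had rank 3 among all 10030 bins at 127-fold over the median bin. It held 2155 CPM in its lowest GFP-Dam library, 4117 in the median library and 6190 in the highest, so even the lowest library was far above the genome's median bin. In the Dam-EMR libraries it held 2231, 4330 and 8565 at the same points of the range, so the ranges of the 2 fusions overlapped. The myo-3 bin (V, 12226816 to 12234343), the minor myosin heavy chain at the centre of the thick filament, held 384.8, 456.9 and 719.7 CPM with GFP-Dam. With Dam-EMR the same bin held 113.6, 356 and 901.5, a wider range that spans the GFP-Dam values. Because a myo-3 promoter also drives the recombinase, the level of the whole gene set was computed without this bin, and it was 3.11. The paramyosin gene unc-15 (I, 7376604 to 7383197) held 376, 570.2 and 1268 with GFP-Dam and 223.5, 632.8 and 1117 with Dam-EMR. The light chain genes mlc-1 and mlc-2 shared a bin at 3.92 ± 0.623 and mlc-3 stood at 3.51 ± 0.440. Only unc-45, the myosin chaperone, was different among thick filament genes, with a midpoint bin at −0.20 ± 0.546 and 14 to 38.7 CPM. That bin holds 8454 of its bases, and the next bin, with 2625, was at 2.57 ± 0.257.

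The thin filament genes were at 3.27 ± 0.362. The tropomyosin gene lev-11 (I, 14621169 to 14631094) had rank 11 among all bins at 60.8-fold over the median bin, with 1096, 1633 and 3264 CPM in the lowest, median and highest GFP-Dam library. Its Dam-EMR values were 100.6, 1673 and 2543, of which the lowest was GFP-Y59C of round 1 and all others were at least 945.5. The 4 actin genes lay at very different levels. The bin of act-4, an actin gene on X, was at 4.88 ± 0.316, and the shared bin of act-2 and act-3 (V, 11071690 to 11078154 over both genes) was at 3.21 ± 0.184 with 199.3, 276 and 414.6 CPM. The neighbouring bin, which holds the whole of act-1 (V, 11081052 to 11082415), was at −0.43 ± 0.421 with 14.2, 20.7 and 40.7 CPM, so that the level changed from well above the genome's median bin to below it within 1 bin of the actin cluster. The bin before act-2 and act-3 was also low, at −0.34 ± 0.562. The actin genes are near-identical copies in sequence, and the authors' treatment of reads that map to several of them is not stated in the labels. The other thin filament genes were unc-60, a cofilin, at 3.59 ± 0.689, unc-87, a calponin-like protein, at 3.33 ± 0.319, unc-94, a tropomodulin, at 2.75 ± 0.921, and unc-78, an actin-interacting protein that acts with cofilin, at 1.62 ± 0.220.

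Troponin genes, which make thin filaments respond to calcium, had a median level of 3.00 ± 0.348. The troponin T genes tnt-3 and tnt-2 were at 5.11 ± 0.416 and 4.60 ± 0.378. Another troponin T gene, mup-2 (X, 6408471 to 6410227), was at 3.34 ± 0.532, with 217.1, 299.9 and 440.8 CPM with GFP-Dam and 160.9, 271.2 and 604.4 with Dam-EMR. Of the troponin I genes, tni-3 was at 3.04 ± 0.307 and tni-1 at 2.76 ± 0.250, and the troponin C gene pat-10 was at 2.26 ± 0.265. The remaining troponin I gene, unc-27, had the lowest bin of the gene set, at −1.18 ± 0.277 and below the median bin in all 12 libraries. This gene lies across a border between bins (X, 8789456 to 8790621), with 621 of its bases in the midpoint bin and 545 in the bin before it, and that other bin was at 4.54 ± 0.732. The value of unc-27 therefore turns on which side of the border is read.

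The 3 giant protein genes had a median of 3.88 ± 0.387, and their length allowed the level to be followed across bins. Twitchin, encoded by unc-22 (IV, 11972697 to 12011007), is a kinase of the titin family on the thick filament. All 5 bins it overlaps were high, from 3.88 to 5.46, and the bin just beyond its upper end was at −3.26, but 1 of the bins below its lower end was at 4.94. Obscurin, encoded by unc-89, is an M-line protein, and its 7 bins ran from 1.07 to 5.54, with the lowest at the upper end and 2 bins beyond it at −1.5 and −1.84, whereas the 3 bins below its lower end were at 2.69, 4.66 and 3.61. The titin-like gene ttn-1 (V, 6120909 to 6202632) was uneven, with 9 bins from 0.0724 to 3.84, of which 2 adjoining bins at 0.0724 and 0.238 were near the genome's median bin. Its flanks were no lower than the gene, with a median of 2.42 over 6 flanking bins and 1.67 over the 9 gene bins, and 1 flanking bin at 4.39 was above every bin of the gene. The perlecan gene unc-52 (II, 14647321 to 14684456), an attachment gene, had 5 bins from 0.927 to 2.70. At the midpoint bin unc-22 held 338.5, 434.9 and 594 CPM with GFP-Dam in the lowest, median and highest library, ttn-1 held 99.7, 195.2 and 378.5, and unc-52 held 136.1, 157.3 and 222.4. The Dam-EMR values were 193.7, 461.3 and 643.3 for unc-22, 51, 136.9 and 337.5 for ttn-1, and 72.1, 188.1 and 298.7 for unc-52. In each of these genes the ranges of the 2 fusions overlapped.

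**Figure D2:**
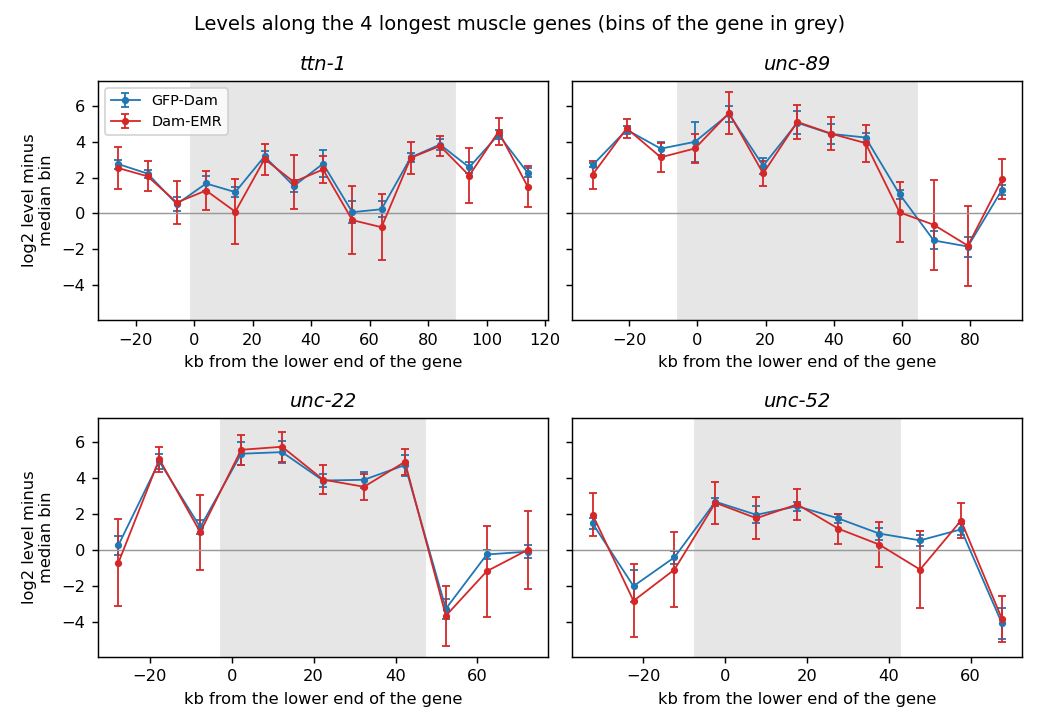
Levels across the 4 longest genes of the set. Points are 10 kb bins at their distance in kb from the lower end of the gene, with the mean and SD over 12 libraries of each fusion on the log2 scale relative to the library's median bin, and the grey span marks the bins the gene overlaps. The unc-22 bins are at 3.88 or above with flanks from −3.26 to 4.94, and the ttn-1 bins run from 0.0724 to 3.84 with a flanking bin at 4.39.

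Attachment genes were lower, with a median of 2.23 ± 0.141 over 13 bins, though still 4.70-fold over the genome's median bin. The highest of them were dim-1, an immunoglobulin-domain protein near dense bodies, at 4.55 ± 0.429, the LIM-domain gene unc-95 at 4.15 ± 0.411, and the PINCH gene unc-97 at 3.93 ± 0.179. The β-integrin gene pat-3 (III, 3908931 to 3914149) was at 2.99 ± 0.538, with 145.9, 243.7 and 340.6 CPM with GFP-Dam and 110.2, 247.3 and 517.3 with Dam-EMR. The vinculin gene deb-1 (IV, 7085215 to 7094266) was at 2.50 ± 0.277, with 129.2, 172.6 and 209.8 with GFP-Dam. Its Dam-EMR values were 11.7, 100.5 and 197.4 and reached well below the GFP-Dam range. The α-actinin gene atn-1 was at 2.21 ± 0.270, the kindlin gene unc-112 at 2.08 ± 0.192 and the α-integrin gene pat-2 at 1.82 ± 0.420. The M-line genes unc-96 and unc-98 were at 1.76 ± 0.286 and 1.51 ± 0.629. The lowest were pat-6, the parvin gene, at 0.294 ± 0.264 and pat-4, the integrin-linked kinase gene (III, 89453 to 94809), at 0.263 ± 0.644, which were close to the genome's median bin. The midpoint bin holds 4809 bases of pat-4, and the bin before it, with 548, was at 1.76 ± 0.157. The MyoD-type transcription factor gene hlh-1 (II, 4518574 to 4522526) was at 3.27 ± 0.457, with 207.6, 305.9 and 367.7 CPM with GFP-Dam and 124.3, 314.8 and 638.5 with Dam-EMR.

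The high level was local. At 2 to 10 bins from the muscle gene bins the median GFP-Dam level was between 0.0377 and 0.913, against 3.13 in the bins themselves and 1.41 and 1.72 in the bins on either side. In 30 of the 38 bins the GFP-Dam level was above the median of the bins within 100 kb in all 12 libraries, against 34.9% of all bins. The exceptions were unc-27, unc-45, unc-98, pat-2, pat-4, pat-6, act-1 and ttn-1. With Dam-EMR 22 bins were above their flanks in all 12 libraries, against 13.7% of all bins, and the Dam-EMR profile had a median of 2.87 in the muscle gene bins and between −0.673 and 0.499 at 2 to 10 bins away. The Dam-EMR level of the set was 2.86 ± 0.510 (n = 12 libraries, 7.25-fold over the median bin). Over the 38 bins the mean levels of the 2 fusions ran in parallel (Pearson's r = 0.987, Spearman's rho = 0.977, n = 38 bins), and over all 10030 bins r was 0.955. These correlations are over bins, which share the same libraries and GATC sites and are not independent replicates.

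**Figure D3:**
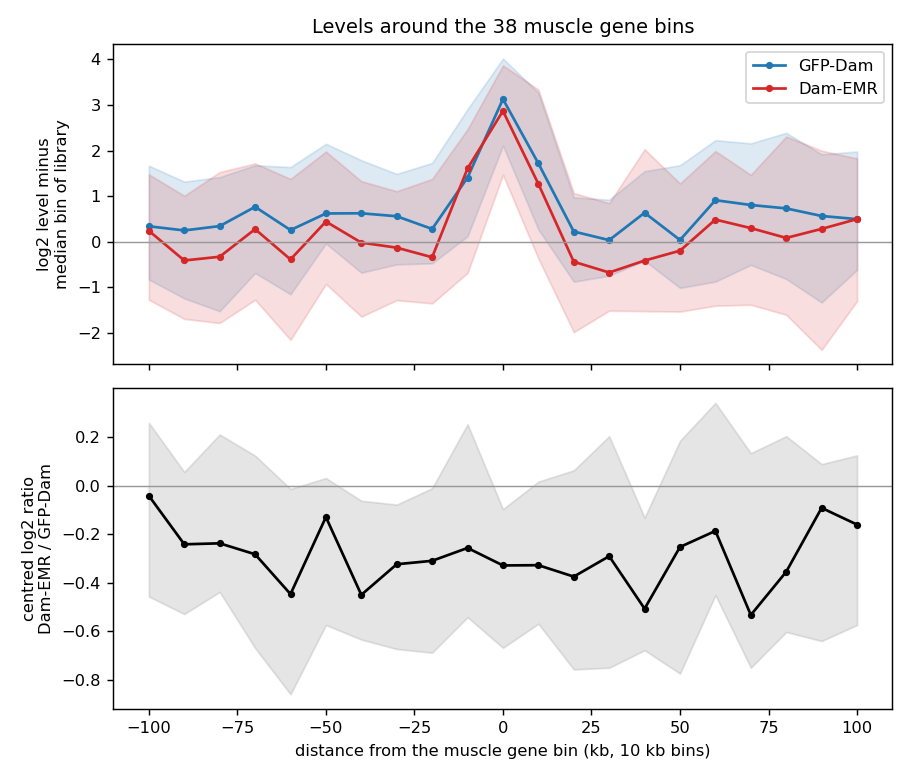
Profiles around the 38 muscle gene bins by distance in kb. The upper part gives the median over bins of the mean level of each fusion, log2 relative to the library's median bin, and the lower part the centred log2 ratio of Dam-EMR over GFP-Dam, each with the interquartile range over bins shaded. Both fusions peak in the muscle gene bin (3.13 and 2.87), while the ratio stays below 0 at every distance, −0.329 in the bin itself and −0.533 to −0.0423 at 2 to 10 bins away.

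The level was above the surrounding zone on autosomal arms, in autosomal centres and on X. The 15 bins on autosomal arms, the outer 33% at each end, were at 3.15 ± 0.432 although all arm bins had a median of −0.426. The 11 bins in autosomal centres were at 2.79 ± 0.353 against 0.476 for all centre bins, and the 12 on X at 3.51 ± 0.401 against 0.511. More than a single protein-coding gene had its midpoint in 26 of the 38 bins, whose median was 3.00 ± 0.356. In the bin of act-2 and act-3 these are both genes of the set. In the other 12 bins the muscle gene was the single one, and there the median was 3.89 ± 0.371.

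The tissue given in the sample labels is body wall muscle, whereas the series' design text names the intestine. Lists of genes for several tissues were therefore set beside each other in the same GFP-Dam libraries. A second list of 23 body wall muscle attachment and sarcomere bins that hold no gene of the set, among them tln-1 (talin) and unc-82, was at 2.78 ± 0.200, and 19 of its bins were above the median bin in all 12 libraries. The 24 bins of muscle membrane, calcium and excitation genes were at 1.95 ± 0.174, with 17 above the median bin throughout. Intestinal genes were at 0.155 ± 0.142 with 5 of 18 bins above it throughout, against 37.6% of all bins. The median of this list thus lay near the genome's median bin. The list includes yolk genes such as vit-2, and whether its genes were active in larvae of this stage was not tested. Pharyngeal muscle genes were at 0.0982 ± 0.200, hypodermal genes at 0.426 ± 0.201, neuronal genes at 0.576 ± 0.204 and germline genes at 0.402 ± 0.296. Genes of the fibrous organelles, by which the hypodermis anchors muscle to the cuticle, were at 0.328 ± 0.202. The 8 bins of other muscle regulators, among them unc-120 and hnd-1, were at −0.059 ± 0.231, so the hlh-1 bin at 3.27 was far above that list's median. The hlh-1 bin holds 4 protein-coding midpoints, so its level cannot be assigned to hlh-1 alone. The highest library of the intestinal list (0.372) was below the lowest library of each of the first 3 muscle lists (2.48, 2.34 and 1.65), and no p-value was computed for this description.

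**Figure D4:**
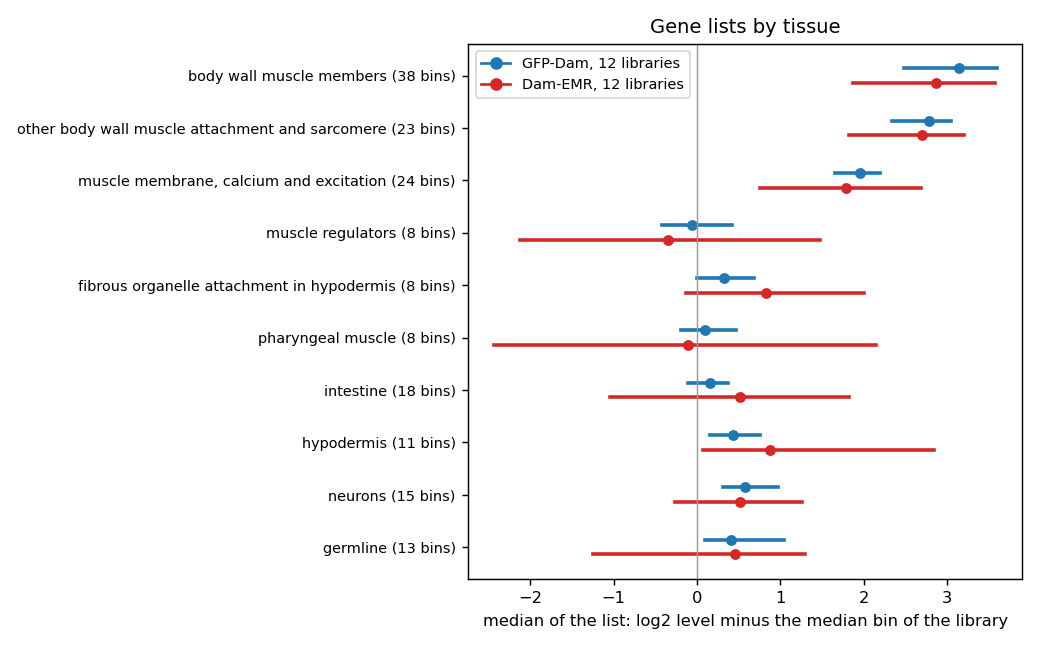
Median level of each gene list, log2 relative to the library's median bin. Points are means over 12 libraries of GFP-Dam (blue) and Dam-EMR (red) and lines run from the lowest to the highest library. The sarcomere and attachment genes (3.14), the second body wall muscle list (2.78) and the membrane and excitation list (1.95) stand apart from the intestinal list (0.155) with GFP-Dam.

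The measure of association with the nuclear envelope was the log2 ratio of Dam-EMR over GFP-Dam in the pair of a strain and round, with 1 read added, minus the pair's median bin. The muscle gene bins lay slightly below the median bin, by an amount smaller than the spread between pairs. The median over the 38 bins averaged −0.267 ± 0.708 over 12 pairs and was above 0 in 5 of them. It ran from −1.29 to 0.656. Of the 38 bins, 32 had a mean ratio below 0, against 59.6% of all bins. The shares of all bins here and below are from bins not matched to the set in GFP-Dam level. Over all 10030 bins mean level and mean ratio correlated at Pearson's r = −0.294, and over the 38 bins at 0.6. The part of the level in these shares was not tested. A ratio above 0 in no more than 2 of 12 pairs was found in 6 bins, against 5.52% of all bins, and none had one above 0 in 10 or more pairs, against 5.1%. The ratio was similar in the flanks, with medians from −0.533 to −0.0423 at 2 to 10 bins away, beside −0.329 in the muscle gene bins.

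The means of the 3 rounds lay further apart than the means of the 4 strains. In round 1 the median was below 0 in all 4 strains, from −1.25 to −0.234, with a mean of −0.841 ± 0.436. In round 2 it averaged 0.371 ± 0.440 and was above 0 in 3 of 4 strains, and in round 3 it averaged −0.330 ± 0.685 and was above 0 in 2 of 4. The GFP-Dam level of the muscle gene bins moved the other way, with 3.50 ± 0.167 in round 1, 2.68 ± 0.173 in round 2 and 3.25 ± 0.275 in round 3. The Dam-EMR level was 2.74 ± 0.648, 2.93 ± 0.642 and 2.90 ± 0.305. The part of the GFP-Dam level in the round's ratio was not tested.

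By strain the medians averaged −0.111 ± 0.251 in GFP-LMN, −0.189 ± 0.757 in GFP-LMN_cec4, −0.613 ± 0.949 in GFP-Y59C and −0.154 ± 0.988 in GFP-Y59C_cec4 (n = 3 pairs each). The differences between strains were smaller than the spread between rounds within 3 of the 4 strains. The GFP-Y59C mean rests partly on its shallow round 3 pair, whose median was −1.29 with 1 read added and was −0.963 with 0.5 reads and −2.34 with 5 reads, and the mean was −0.272 without that pair. Under other added reads, centrings and bins the GFP-Y59C mean ran from −1.28 to −0.318. It was −1.15 without the round 2 pair. The 38 bins make up 0.379% of the nuclear bins. They took 0.906% to 2.19% of the nuclear reads of a Dam-EMR library and 1.38% to 2.22% of those of a GFP-Dam library. In GFP-Y59C the Dam-EMR shares were 0.906%, 2.17% and 1.62% in rounds 1 to 3, beside 2.15%, 2.07% and 1.64% for GFP-Dam, so by this measure the 2 fusions were furthest apart in round 1. The largest bin of a library took 5.28% to 37.8% of its nuclear reads, and shares and CPM values were not corrected for this.

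**Figure D5:**
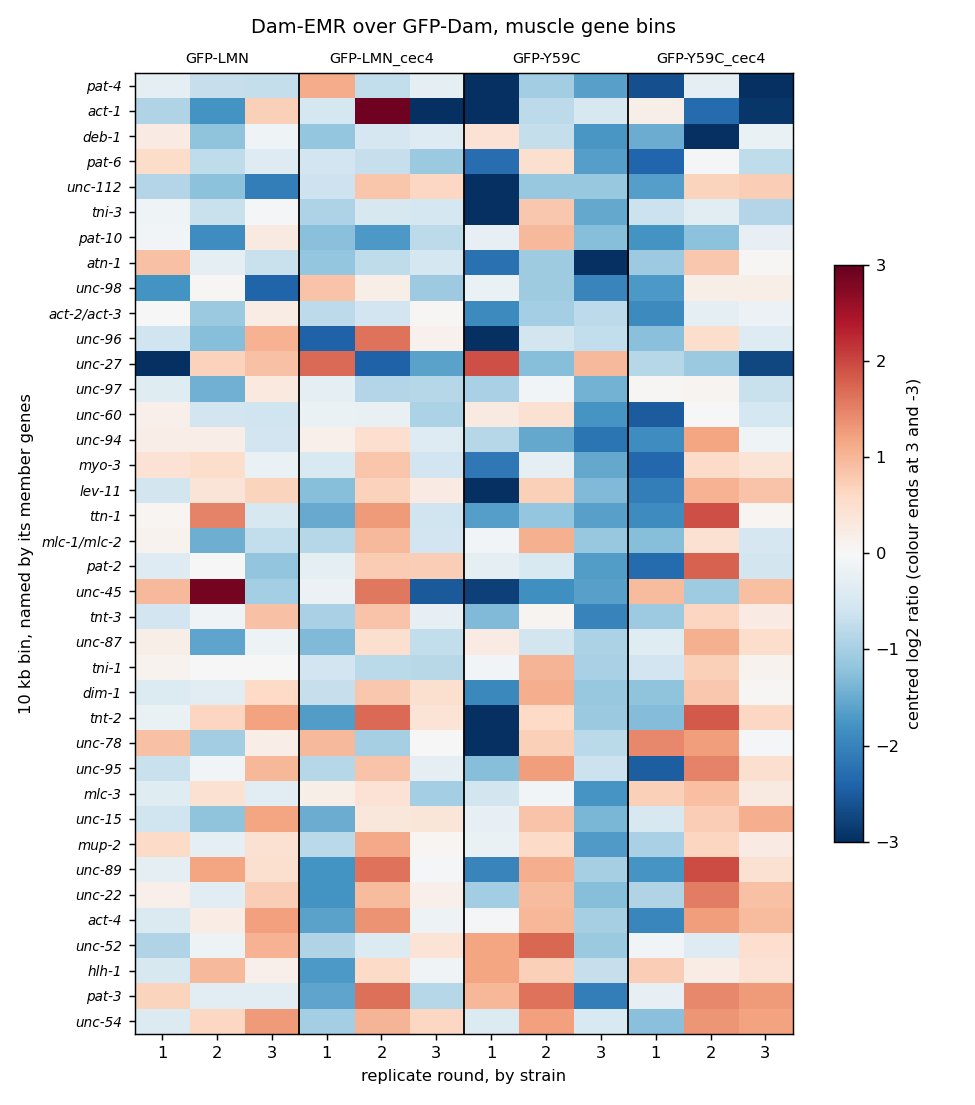
Centred log2 ratio of Dam-EMR over GFP-Dam in the 38 muscle gene bins (rows, ordered by mean ratio) and 12 pairs (columns, 3 replicate rounds for each strain). Blue is below the pair's median bin and red above it, and colours end at 3 and −3. Round 1 columns are mostly blue, with pair medians of −1.25 to −0.234. In round 2, with medians of −0.277 to 0.656, 14, 25, 21 and 28 of 38 bins are above 0 in GFP-LMN, GFP-LMN_cec4, GFP-Y59C and GFP-Y59C_cec4. The round 3 column of GFP-Y59C is the shallow library, with 1 of 38 bins above 0.

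Individual genes varied as widely. The ratio of unc-54, the highest mean of the set at 0.312 ± 0.962, was −0.41, 0.61 and 1.27 in rounds 1 to 3 of GFP-LMN and −1.03, 1.02 and 0.61 in GFP-LMN_cec4. It was −0.40, 1.24 and −0.46 in GFP-Y59C and −1.25, 1.33 and 1.22 in GFP-Y59C_cec4. The strains overlapped, and round 1 was the lowest in 3 of the 4 strains. The next highest means were pat-3 at 0.186 ± 1.28 and hlh-1 at 0.166 ± 0.818. For pat-3 the values were 0.67, −0.33 and −0.33 in GFP-LMN, −1.59, 1.64 and −0.86 in GFP-LMN_cec4, 0.99, 1.63 and −2.08 in GFP-Y59C and −0.25, 1.45 and 1.29 in GFP-Y59C_cec4. For hlh-1 they were −0.49, 0.98 and 0.14, then −1.72, 0.58 and −0.10, then 1.18, 0.72 and −0.70, and finally 0.75, 0.22 and 0.43 in the same order of strains. Neither gene separated any strain from another.

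The lowest means were pat-4 at −1.20 ± 1.43, act-1 at −1.14 ± 1.98 and deb-1 at −0.836 ± 0.999. The pat-4 ratio was −0.30, −0.69 and −0.72 in GFP-LMN, 1.11, −0.74 and −0.28 in GFP-LMN_cec4, −4.02, −1.05 and −1.64 in GFP-Y59C and −2.63, −0.28 and −3.18 in GFP-Y59C_cec4. All 3 GFP-Y59C pairs lay below all 3 GFP-LMN pairs, but their Dam-EMR libraries held only 0, 10 and 0 reads in this bin. The act-1 ratio was −0.90, −1.80 and 0.71, then −0.52, 2.91 and −4.22, then −3.58, −0.79 and −0.48, and finally 0.18, −2.30 and −2.92, and rested on few reads too, 0, 35 and 0 with Dam-EMR in GFP-Y59C. The deb-1 ratio was 0.24, −1.21 and −0.12, then −1.15, −0.51 and −0.39, then 0.42, −0.72 and −1.74, and finally −1.48, −3.18 and −0.19, and was below 0 in 10 of the 12 pairs.

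Among the other genes chosen by role, myo-3 was at 0.43, 0.52 and −0.21 in GFP-LMN, −0.46, 0.82 and −0.57 in GFP-LMN_cec4, −2.15, −0.26 and −1.53 in GFP-Y59C and −2.35, 0.57 and 0.41 in GFP-Y59C_cec4. Every GFP-Y59C pair of myo-3 was below every GFP-LMN pair, with means of −1.31 and 0.247. For lev-11 the ratios were −0.55, 0.39 and 0.66, then −1.28, 0.69 and 0.26, then −4.04, 0.71 and −1.31, and then −2.07, 1.04 and 0.85, so round 1 was the lowest in every strain. For unc-15 they were −0.60, −1.20 and 1.18, then −1.5, 0.35 and 0.37, then −0.24, 0.84 and −1.38, and then −0.47, 0.75 and 1.08. These strains overlapped for both genes. For unc-22 they were 0.14, −0.31 and 0.75, then −1.79, 0.96 and 0.14, then −1.05, 0.96 and −1.27, and then −0.91, 1.54 and 0.88. For ttn-1 they were 0.05, 1.48 and −0.49, then −1.51, 1.28 and −0.60, then −1.65, −1.16 and −1.63, and then −1.89, 1.94 and 0.07. The 3 GFP-Y59C pairs of ttn-1 lay below the 3 of GFP-LMN, and the unc-22 pairs overlapped. For unc-52 the ratios were −0.91, −0.15 and 1.03, then −0.89, −0.41 and 0.40, then 1.17, 1.73 and −1.12, and then −0.08, −0.39 and 0.49. For mup-2 they were 0.58, −0.29 and 0.45, then −0.81, 1.13 and 0.05, then −0.20, 0.58 and −1.71, and then −0.97, 0.66 and 0.25. Both had overlapping strains. The bin of act-2 and act-3 was at −0.01, −1.12 and 0.21, then −0.79, −0.56 and 0.03, then −1.92, −1.03 and −0.79, and then −1.90, −0.30 and −0.17, and was below 0 in 10 of the 12 pairs.

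The association was tested on the counts of all bins with edgeR's quasi-likelihood test and Benjamini-Hochberg adjustment. Over the 4 strains together no muscle gene bin was called at an adjusted p under 0.05, where 3.09% of the 9735 bins tested were called, 1.29% higher and 1.80% lower with Dam-EMR. The smallest p-values belonged to pat-4, with a log2 change of −1.45 (SE 0.484, adjusted p = 0.0869), pat-10 with −0.765 (SE 0.261, adjusted p = 0.0930) and the bin of act-2 and act-3 with −0.684 (SE 0.256, adjusted p = 0.124). At an unadjusted p under 0.05 there were 8 bins lower and 0 higher, against 20.2% of all bins in either direction. DESeq2 called 2, pat-10 with adjusted p = 0.0431 and the bin of act-2 and act-3 with adjusted p = 0.0305, both lower. Of all 9903 bins it tested, DESeq2 called 900, of which 382 were lower. On the pair ratios limma called 0 of the set and 4 of 9735 bins. Leaving out the round 2 pair of GFP-Y59C gave 4 lower calls with edgeR, which were pat-10, pat-4, atn-1 and tni-3. In that fit 239 of 9807 bins were called lower. Leaving out its shallow round 3 pair gave 1, the bin of act-2 and act-3, where 249 of 9807 bins were called lower. The fitted median of the 38 bins was −0.330, beside −0.066 for all bins, and the difference of the medians ran from −0.31 to 0.104 when a round or pair was left out.

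Within single strains no muscle gene bin was called by edgeR. In GFP-LMN 0% of all bins were called, and the smallest p-values of the set were those of unc-112 with a log2 change of −1.35 (SE 0.626), unc-98 with −1.5 and unc-45 with 1.34. In GFP-LMN_cec4 0% of all bins were called as well, and pat-10 at −1.37 (SE 0.524), tni-1 at −0.868 and unc-97 at −0.763 came first. Adjusted p-values in these 2 strains were 0.9985 or above, and 2 bins of the set were lower at an unadjusted p under 0.05 in each, against 3.07% and 4.36% of all bins in either direction. In GFP-Y59C 0.955% of all bins were called, 0.0616% higher and 0.894% lower, and the first of the set were unc-45 at −3.93 (SE 1.21, adjusted p = 0.0991), atn-1 at −1.95 (SE 0.606, adjusted p = 0.101) and pat-4 at −3.60 (SE 1.16, adjusted p = 0.111). There 9 bins were lower and 0 higher at an unadjusted p under 0.05, against 19.9% of all bins. DESeq2 called these 3 and unc-112 as lower in this strain, with adjusted p-values from 0.0175 to 0.0277, while limma called 0. Of all 9903 bins tested by DESeq2, 877 were called in this strain, 455 of them lower, and limma called 0 of 9735. In GFP-Y59C_cec4 0% were called, and pat-4 at −2.04 (SE 0.955, adjusted p = 0.466), pat-10 at −1.06 and unc-27 at −2.23 came first, with 1 lower at an unadjusted p under 0.05, against 10.3% of all bins.

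The effect of the lamin substitution on the association was read from the difference of the ratio between GFP-Y59C and GFP-LMN. Muscle gene bins had lower ratios in GFP-Y59C for 30 of 38 by mean, against 50.4% of all bins, and GFP-Y59C was the lowest of the 4 strains for 24, against 30.1%. All 3 pairs of GFP-Y59C were below all 3 of GFP-LMN for 6 bins, against 3.68%. No bin of the set was called by edgeR (0.0205% of all bins), with 5 lower and 0 higher at an unadjusted p under 0.05, against 10.8% of all bins, and 3 lower with the round as a block, against 10.2%. The first was unc-45, with a difference of −5.27 (SE 1.51, adjusted p = 0.177), then atn-1 with −2.07 (SE 0.819, adjusted p = 0.334) and ttn-1 with −2.07 (SE 0.840, adjusted p = 0.349). For unc-45 the ratios were 0.98, 2.86 and −1.01 in GFP-LMN and −2.80, −1.84 and −1.63 in GFP-Y59C, the latter from 1, 5 and 0 Dam-EMR reads, so the groups did not overlap but the lower one held almost no reads. DESeq2 called unc-45 here (adjusted p = 0.0326), where it called 117 of 9903 bins, 98 of them lower, and limma called 0. The fitted difference had a median of −0.571 in the set and −0.255 over all bins, and the difference of these medians ran from −0.559 to 0.142 with a round or pair left out.

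The cec-4 mutation was examined in each lamin background. With GFP::LMN-1 the mean ratio was lower in the mutant for 29 of 38 bins, against 52.1% of all bins, and edgeR called none (0% of all bins, and 0 of the set at an unadjusted p under 0.05, against 2.53%). The smallest p-values were those of unc-112 with a difference of 1.62 (SE 0.869), unc-98 with 1.53 and tni-1 with −0.884, all with an adjusted p of 0.9999. The fitted difference was below 0 for 29 of 38 bins, for 19 without the round 3 pair of GFP-LMN and for 21 without the round 1 pair of GFP-LMN_cec4. The shift of the set's median relative to all bins, −0.305, ran from −0.721 to −0.0193 with a round or pair left out. With GFP::LMN-1(Y59C) the mean ratio was higher in the mutant for 31 of 38 bins, against 48.8%, and all 3 pairs were above all 3 of GFP-Y59C for 2 bins, against 3.53%. None was called (0% of all bins), with 4 higher and 0 lower at an unadjusted p under 0.05, against 13.6% of all bins. The first were unc-45 with 4.44 (SE 1.5, adjusted p = 0.182), atn-1 with 1.96 (SE 0.818, adjusted p = 0.276) and unc-112 with 2.17 (SE 0.931, adjusted p = 0.290). This comparison and that of GFP-Y59C with GFP-LMN use the same GFP-Y59C libraries. With the substituted lamin the shift of the set's median relative to all bins, 0.327, ran from −0.127 to 0.723 with a round or pair left out.

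The interaction, which asks whether cec-4 loss acted differently with the 2 lamins, gave no call (0% of all bins). It was 5.62 (SE 1.96, adjusted p = 0.357) for unc-45, 3.03 (SE 1.14, adjusted p = 0.403) for atn-1 and 2.38 (SE 1.16, adjusted p = 0.557) for ttn-1, and 3 bins were higher and 0 lower at an unadjusted p under 0.05, against 8.95% of all bins. GFP-Y59C_cec4 against GFP-LMN gave no call either (0% of all bins, and 0 of the set at an unadjusted p under 0.05, against 4.59%), with unc-112 at 1.54 (SE 0.870), unc-27 at −2.46 and unc-98 at 1.27 first, each with an adjusted p of 0.9999. DESeq2 and limma called 0 of the set in these 2 comparisons, where DESeq2 called 55 and 21 of 9903 bins and limma 0.

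Accessibility to GFP-Dam was compared between strains apart from the ratio. The mean level was higher in the 6 Y59C libraries than in the 6 wild-type lamin libraries for 33 of 38 bins, against 55.5% of all bins, but the 2 sets of libraries overlapped for every one of the 38 (0.0499% of all bins did not overlap). The set's median was 3.24 ± 0.452 with the substituted lamin and 3.04 ± 0.367 with GFP::LMN-1 (n = 6 each). Within rounds, the Y59C library was above its match by 0.0209, 0.270 and 0.653 with intact cec-4 in rounds 1 to 3, and by 0.347 and 0.146 in rounds 1 and 3 with cec-4 mutated, and was below it (−0.276) in round 2. By edgeR no muscle gene bin was called (0.0102% of all bins) and 0 had an unadjusted p under 0.05, against 1.01%. With the replicate round as a block 3 were higher and 0 lower at an unadjusted p under 0.05, against 4.15% of all bins, and again none was called. The smallest p-values were those of unc-98 with a log2 difference of 0.499 (SE 0.289), act-1 with 0.377 and unc-112 with 0.209, each with an adjusted p of 0.9998. Between mutant and intact cec-4 the medians were 3.13 ± 0.346 and 3.15 ± 0.491, and edgeR called none (0% of all bins, 0 of the set at an unadjusted p under 0.05, against 1.33%), and with the round as a block 2 were lower and 0 higher at an unadjusted p under 0.05, against 5.51%. The first there were act-1 at −0.34 (SE 0.229), unc-98 at −0.407 and pat-6 at −0.233, with an adjusted p of 0.9999, and the act-1 difference turned to 0.0301 without round 2.

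The ratio was also read for the other lists. The second body wall muscle list had a median of −0.201 ± 0.678 over 12 pairs, with unc-23, lim-8 and uig-1 furthest from 0 at −1.10, −1.03 and −0.984. The membrane and excitation list was at −0.231 ± 0.555, with slo-2 at −2.23, unc-36 at −1.40 and itr-1 at 0.895. The other muscle regulators were at −0.310 ± 0.747, with ceh-51 at −1.91, egl-15 at −1.61 and unc-120 at −1.07. The muscle lists were thus close to the set's −0.267, and all spread by more than their distance from 0. Fibrous organelle genes were at 0.365 ± 0.777, with pat-12 at 0.873, the bin of mua-6 and ifa-3 at −0.736 and mup-4 at 0.439, and pharyngeal muscle genes at 0.125 ± 0.847, with tni-4 at −1.44, pha-4 at −0.737 and ceh-22 at −0.622. Intestinal genes were at 0.251 ± 0.454, with vit-2 at 1.47, ifb-2 at 1.14 and lys-7 at 1.07, and hypodermal genes at 0.395 ± 0.50, with sqt-3 at −1.12, bli-1 at 1.12 and elt-1 at 0.887. Neuronal genes were at −0.0561 ± 0.464, with ric-4 at −0.926, rab-3 at −0.914 and cha-1 at 0.902, and germline genes at 0.130 ± 0.459, with pgl-3 at 0.852, glh-2 at 0.755 and spe-11 at −0.627. By edgeR over the 4 strains 1 intestinal bin was called higher and none in the other lists, against 3.09% of all bins.

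The authors' deposited log2 ratios in 100 kb bins were read for the 36 bins that hold these genes. In the authors' deposited table the median of these bins was −0.0536 in GFP-LMN, −0.244 in GFP-LMN_cec4, −0.237 in GFP-Y59C and 0.131 in GFP-Y59C_cec4. The medians of all 1005 bins in the authors' deposited table were 0.0307, 0.000534, −0.0103 and 0.240 in the same order. Below the median of all bins were 20, 33, 30 and 23 of the 36 bins in the authors' deposited table.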

How the data were processed

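Raw counts of reads were deposited by the authors for each library, in bins of 10 kb and of 100 kb (ce11, per the submitters' processing notes). The deposited log2 values of 100 kb bins give Dam-EMR over GFP-Dam per strain, with the 3 replicates averaged, and were recomputed exactly from the counts as the log2 of the mean ratio of library-scaled reads. The deposited header for GFP-LMN_cec4 names its Dam-EMR strain in both places, and its values were read as Dam-EMR over GFP-Dam. No aligner or read filter is named in the labels. No correction for GATC sites or mappability per bin was made. PCR reads carry no molecular identifiers, so floors cover counting error only.

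Gene positions came from RefSeq (WBcel235, the assembly of ce11), and all 40 genes matched. The gene set and the other lists were chosen with earlier results of these data known. Every gene is accounted for, and genes with values in each library were chosen by role, by the 3 smallest p-values per comparison or by the 3 highest and lowest mean ratios. The bins beside low genes were chosen after their values were seen. Of 20 intestinal genes 19 matched.

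Counts of all nuclear bins were fitted with edgeR 4.0.16 (TMM factors, filterByExpr, quasi-likelihood) in R 4.3.3 over 24 libraries, or over the 12 GFP-Dam libraries for accessibility. Calls had a Benjamini-Hochberg adjusted p under 0.05 over all bins tested. Alternatives were DESeq2 1.42.0, limma 3.58.1 on pair ratios, RLE factors, library totals, no filter, 100 kb bins, every overlapped bin, other added reads and centrings, and leaving out rounds or pairs. Scripts were tested on simulated counts.

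The design text states that strains were grown in parallel in each round, so the replicate numbers pair the libraries. Deviations of bins from the group mean correlated at a median r of 0.539 (0.325 to 0.739) between GFP-Dam libraries of the same round and −0.307 between rounds. For Dam-EMR the values were 0.06 (−0.112 to 0.198) and −0.0185.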

Additional observations from a re-analysis of the deposited data

How the results depend on the processing

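The GFP-Dam level of the muscle gene bins, 3.14, was between 2.98 and 3.16 with other added reads, other centring or every overlapped bin, 2.96 to 3.37 with libraries left out, 0.886 in 100 kb bins and 3.89 in bins with no other protein-coding midpoint (chosen after seeing the data, as were zone centring, 3.02, the level without the myo-3 bin and without single libraries). In 100 kb bins 3 of 36 were at least 4-fold over the median bin, against 23 of 38. The ratio of the set ran from −0.607 to −0.174 under other added reads and centrings and from −0.585 to 0.0203 with a round or pair left out, the highest without round 1. By strain the leave-out ranges were −0.255 to −0.0281 (GFP-LMN), −0.600 to 0.145 (GFP-LMN_cec4), −1.15 to −0.272 (GFP-Y59C) and −0.558 to 0.397 (GFP-Y59C_cec4). Lower calls in the association over strains were 2 with DESeq2 (382 of 9903 bins) and 1 in 100 kb bins (25 of 1004). With pairs left out they were 0 to 4. In GFP-Y59C they were 4 with DESeq2 (455 of 9903) and 1 over every overlapped bin (87 of 9735). For GFP-Y59C minus GFP-LMN there was 1 with DESeq2 (98 of 9903). Brackets hold the lower calls over all bins tested. The called bins of the whole genome ran from 0 to 900 over strains and 0 to 877 in GFP-Y59C over the alternatives. With the replicate block 0 muscle gene bins were called in every comparison, as without it, at an adjusted p under 0.05. The act-1 difference between cec-4 states in GFP-Dam turned from −0.34 to 0.0301 without round 2 and was −0.581 without round 3. No muscle gene bin was called in the main fits, so an alternative kept its side of the threshold by staying uncalled. Sizes of change were not compared in this count. Of 750 alternatives for single tested genes, 740 kept direction and side of the threshold, 9 passed it and 1 turned. The causes were not tested. Depth limits the Dam-EMR values of unc-27, act-1, pat-4 and unc-45, with 0 to 35 reads in GFP-Y59C libraries. The lowest Dam-EMR value of atn-1 and of pat-6 was 0 CPM too. In the shallow round 3 library of GFP-Y59C depth limits most of the set, as its median muscle gene bin held 7 reads.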
